A study of Homo sapiens with 10 samples.

Results

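The genes described here are 9 response genes and regulators of the TGF-beta and BMP pathways, ID1, ID2, ID3, SMAD6, SMAD7, SMAD3, SKIL, TGFB2 and BAMBI. They were taken by symbol from a table of 28380 genes, and all 9 had enough reads to be among the 13378 genes tested. The cells were RPE-1, an immortalized line of human retinal pigment epithelial cells. One group of 5 replicates received 25 µM sulforaphane (SFN), an isothiocyanate from cruciferous vegetables that activates the transcription factor Nrf2, for 4 h, and the other group of 5 received its vehicle, DMSO, for the same time. Each replicate held 50000 cells, and all came from this 1 cell line. RNA was measured by QuantSeq, which reads the 3′ ends of transcripts, and the deposited values are read counts per gene. As the labels do not say whether the replicates were separate cultures, p-values measure the spread between these samples, which may be technical.

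TGF-beta and BMP ligands bind pairs of type I and type II receptors at the cell surface, and the activated type I receptor phosphorylates SMAD proteins. SMAD2 and SMAD3 carry the TGF-beta and activin signal and SMAD1, SMAD5 and SMAD9 carry the BMP signal, each together with SMAD4, into the nucleus. Many of the genes that respond are themselves inhibitors of the pathway, and TGF-beta is known in retinal pigment epithelium for driving the shift from an epithelial to a mesenchymal state.

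The total count per sample was 15689294 to 20666692 in DMSO and 12375860 to 17308706 in SFN. SFN changed 3076 of the 13378 genes, or 23.0%, at an adjusted p under 0.05 in the quasi-likelihood test of edgeR, adjusted by the Benjamini-Hochberg method, with 1214 increased and 1862 decreased. Increased genes made up 39.5% of these calls, and 27.5% when libraries were scaled by their totals alone. DMSO replicate 1 stood apart from the other libraries: Spearman correlations within the DMSO group, computed across genes, averaged 0.935 for this library and 0.979 to 0.982 for each of the remaining 4. Without it, 6251 of 13566 genes passed, or 46.1%, with 22.5% increased and 23.5% decreased, so the 9 genes are given with and without it. Of 12 listed retinal pigment epithelium markers, 10 had a row in the table and 4 of these had a mean of at least 1 CPM. Their summed level was 62.5 to 104 CPM in DMSO and 55.8 to 137 CPM in SFN. The transcription factors MITF (43.9 to 55.1 CPM in DMSO, 18.7 to 25.6 CPM in SFN) and OTX2 (12.1 to 17.7 and 8.69 to 9.36 CPM) were lower in every SFN library, and the channel gene BEST1 ranged from 5.42 to 41.8 CPM in DMSO and from 19.4 to 107 CPM in SFN, whereas the visual cycle genes RPE65 and RLBP1 had at most 4 counts in any library. Summed levels were 490 to 772 CPM in DMSO and 511 to 856 CPM in SFN for 3 epithelial keratins, and 5420 to 6120 and 5760 to 8570 CPM for the mesenchymal gene VIM. Among markers of other cells, the 3 fibroblast genes summed to 8.72 to 14.4 CPM in DMSO and 6.73 to 10.8 CPM in SFN, and the 3 endothelial genes to 1.62 to 5.70 and 0.604 to 1.94 CPM. The epithelial adhesion, leukocyte and photoreceptor lists each summed to at most 1.21 CPM in any library, and the part of any marker list in the results was not tested.

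The promoters of the inhibitory SMADs and of the ID genes that moved in opposite directions are shown for comparison. Each is the 250 bases before the transcript start in RefSeq (GRCh38.p14), 5′ to 3′ on the strand of the gene. SMAD6 is at chr15:66701986-66702235 on the plus strand and SMAD7 at chr18:48950966-48951215 on the minus strand. ID2 is at chr2:8681806-8682055 on the plus strand and ID3 at chr1:23559502-23559751 on the minus strand. Capitals mark matches on either strand to the SMAD-binding element CAGAC, to the GC-rich SMAD motif GGCGC, to the related motif GGCCG, to the AP-1 motif TGANTCA or to the cyclic AMP response motif TGACGT, and matches of GC-rich motifs can overlap.
SMAD6: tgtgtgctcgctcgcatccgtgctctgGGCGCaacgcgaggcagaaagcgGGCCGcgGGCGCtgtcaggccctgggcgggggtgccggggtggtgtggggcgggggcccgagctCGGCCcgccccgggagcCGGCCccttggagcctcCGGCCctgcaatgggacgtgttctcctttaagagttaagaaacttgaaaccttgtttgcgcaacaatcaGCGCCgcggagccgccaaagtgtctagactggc
SMAD7: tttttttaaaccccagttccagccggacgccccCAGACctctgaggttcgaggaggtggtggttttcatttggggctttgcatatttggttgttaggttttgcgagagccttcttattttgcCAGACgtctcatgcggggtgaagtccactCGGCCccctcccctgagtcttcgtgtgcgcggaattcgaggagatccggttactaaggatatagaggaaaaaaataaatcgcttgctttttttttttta
ID2: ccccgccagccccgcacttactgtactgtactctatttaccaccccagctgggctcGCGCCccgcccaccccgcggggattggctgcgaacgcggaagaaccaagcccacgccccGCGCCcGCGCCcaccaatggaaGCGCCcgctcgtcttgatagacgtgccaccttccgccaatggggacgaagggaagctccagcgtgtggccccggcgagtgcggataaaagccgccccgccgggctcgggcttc
ID3: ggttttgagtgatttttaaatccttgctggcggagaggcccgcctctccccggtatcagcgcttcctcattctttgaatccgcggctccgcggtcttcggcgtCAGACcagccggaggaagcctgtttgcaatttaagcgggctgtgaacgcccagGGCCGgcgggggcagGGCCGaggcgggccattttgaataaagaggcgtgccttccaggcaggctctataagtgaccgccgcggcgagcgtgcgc
CAGAC had 0 matches in the SMAD6 window and 2 in that of SMAD7. Other forms of a SMAD-binding element were not searched for. The SMAD6 window holds such a form, the palindrome GTCTAGAC, in lower case near its 3′ end. A window without CAGAC therefore need not lack a SMAD-binding element. GGCGC had 3 matches at SMAD6, 4 at ID2 and 0 at SMAD7. ID3 held 1 CAGAC match and 2 GGCCG matches. These short motifs were common, since CAGAC was found in 38%, GGCGC in 44.5% and GGCCG in 44.7% of 35116 windows of the same length, and a match is a description of the letters only. In the first RefSeq window of each gene, CAGAC occurred in 5, GGCGC in 6 and GGCCG in 7 of the 9 genes. TGANTCA, found in 6.57% of all windows, was in 0 of these 9 windows, and TGACGT, found in 7.10%, was in 2. Over all 15 RefSeq windows of the 9 genes, CAGAC was in 8, GGCGC in 6, GGCCG in 10, TGANTCA in 1 and TGACGT in 2.

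SFN treatment changed 5 of the 9 genes, or 55.6%, against 23.0% of all genes tested. As the 9 genes were chosen with earlier results of these data known, such shares are no test of an excess. ID3 and SMAD7 increased, set against 9.07% of all genes, and ID2, SMAD6 and SMAD3 decreased, set against 13.9%. ID2 and SMAD6 fell more than 2-fold, which 5.76% of all genes did. A rise of more than 2-fold was found for 0 of the 9 genes, against 2.94% of all genes. In either direction, 2 of the 9 genes passed this limit, against 8.69% of all genes. ID2 and SMAD6 also had no overlap between the 5 SFN and the 5 DMSO values, as was found for 19.9% of all genes, 11.1% with SFN lower and 8.78% with SFN higher. The median log2 fold change was -0.58 over the 9 genes and -0.03 over all genes tested. Without DMSO replicate 1, 8 of the 9 genes passed, against 46.1% of all genes in the same fit, with 2 increased and 6 decreased, against 22.5% and 23.5%, and the 5 calls made with all libraries kept their direction. In that fit ID3 rose more than 2-fold, as did 556 of all 13566 genes. In RNA from whole cultures, fewer cells expressing a gene and less RNA per cell cannot be told apart.

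**Figure D1:**
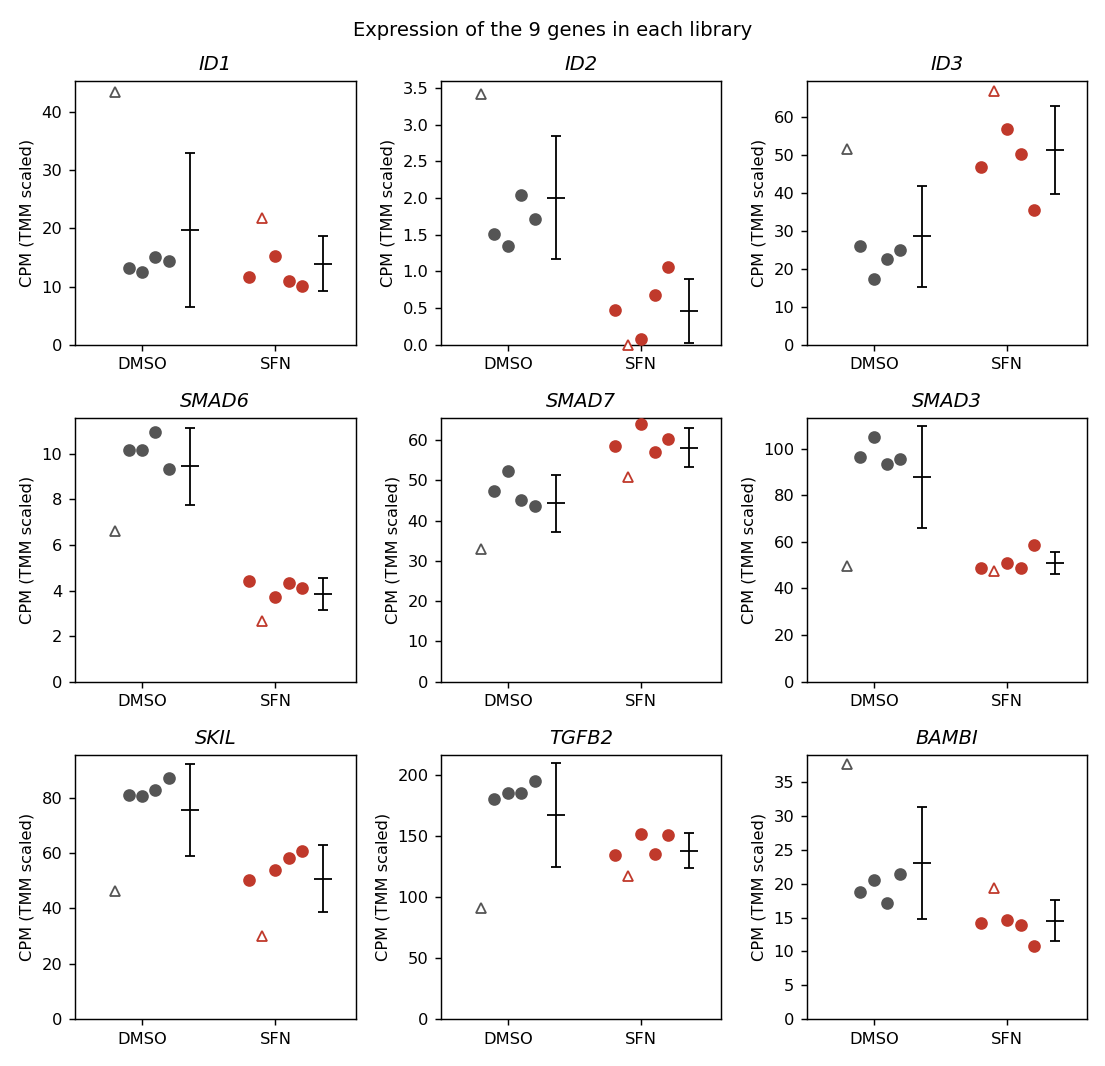
Expression of the 9 genes in each library, in CPM scaled by TMM, on linear axes that start at 0. Points are the 5 DMSO and 5 SFN libraries with replicate 1 to 5 from left to right, triangles mark the libraries DMSO 1 and SFN 2, and bars give the mean and SD. ID2 and SMAD6 do not overlap between the groups, and DMSO 1 is the highest or lowest DMSO library in every panel.

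Of the inhibitory SMADs, SMAD6 fell and SMAD7 rose. SMAD6, which mainly inhibits BMP receptors and their SMADs, lies at chr15:66702236-66782849 on the plus strand in GRCh38 and has 4 exons in its canonical transcript. In DMSO replicates 1 to 5 its level was 6.60, 10.2, 10.2, 11 and 9.35 CPM, where CPM are counts relative to the TMM-scaled library size. In SFN replicates 1 to 5 it was 4.41, 2.67, 3.72, 4.32 and 4.10 CPM. Every SFN library was below every DMSO library, and the lowest DMSO value was that of replicate 1. The mean went from 9.45 ± 1.69 to 3.85 ± 0.706 CPM (SD, n = 5 each), a log2 fold change of -1.29 ± 0.18 (SE) with an adjusted p of 0.000347 by edgeR's quasi-likelihood test, so that it fell by 59.1%.

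SMAD7, which binds activated type I receptors and recruits ubiquitin ligases to them, lies at chr18:48919853-48950965 on the minus strand and has 4 exons. Its level in DMSO replicates 1 to 5 was 32.9, 47.3, 52.3, 45.2 and 43.8 CPM. In SFN replicates 1 to 5 it was 58.6, 50.7, 63.9, 57.1 and 60.2 CPM. The groups overlapped, with 4 of 5 SFN values above the highest DMSO value. The mean rose from 44.3 ± 7.15 to 58.1 ± 4.83 CPM (SD, n = 5 each), by 1.31-fold, and the log2 fold change was 0.39 ± 0.13 with an edgeR adjusted p of 0.0478. This call was close to the threshold and was lost in 11 of 19 alternative analyses, with an edgeR adjusted p of up to 0.236, including when any of DMSO replicates 2, 4 and 5 or SFN replicates 1, 3, 4 and 5 was left out (edgeR adjusted p of 0.0761 to 0.116). Without DMSO replicate 1 the log2 fold change was 0.30 with an edgeR adjusted p of 0.0172.

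The ratio of SMAD6 to SMAD7 within a library does not depend on scaling. Its log2 was -2.32, -2.22, -2.36, -2.05 and -2.23 in DMSO replicates 1 to 5, and -3.73, -4.25, -4.10, -3.73 and -3.88 in SFN replicates 1 to 5. The groups were well separated, and DMSO replicate 1 lay within the range of the other DMSO libraries. The log2 ratio fell by 1.70 ± 0.12 (SE), with p = 0.00794 by a two-sided exact permutation test, the smallest p that 5 against 5 allows, and 0.0106 after Benjamini-Hochberg adjustment over the 4 ratios examined.

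SMAD3, the receptor-activated SMAD of the TGF-beta and activin branch, lies at chr15:67063763-67195173 on the plus strand and has 9 exons. Its level was 49.5, 96.5, 105, 93.4 and 95.4 CPM in DMSO replicates 1 to 5. In SFN replicates 1 to 5 it was 48.7, 47.5, 51.1, 48.7 and 58.8 CPM. All SFN values were below those of DMSO replicates 2 to 5, while DMSO replicate 1 lay among the SFN values. The mean fell from 87.9 ± 22.0 to 51.0 ± 4.59 CPM (SD, n = 5 each), and the log2 fold change was -0.79 ± 0.18 with an edgeR adjusted p of 0.00786. Without DMSO replicate 1 it was -0.94 ± 0.09, with an edgeR adjusted p of 1.45e-06.

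The ID proteins are helix-loop-helix proteins without a DNA-binding region that hold E proteins away from DNA, and their genes are classical targets of BMP signaling. ID3 (chr1:23557926-23559501, minus strand, 3 exons) had 51.8, 26.1, 17.4, 22.6 and 25 CPM in DMSO replicates 1 to 5. In SFN replicates 1 to 5 it had 46.8, 67.0, 57.0, 50.5 and 35.6 CPM. All SFN values were above those of DMSO replicates 2 to 5, but only 2 of 5 were above DMSO replicate 1. The mean rose from 28.6 ± 13.4 to 51.4 ± 11.7 CPM (SD, n = 5 each), by 1.80-fold, and the log2 fold change was 0.85 ± 0.27 with an edgeR adjusted p of 0.043. The call was lost when any of DMSO replicates 2 to 5 or SFN replicates 1 to 4 was left out (edgeR adjusted p of 0.0691 to 0.0985). Without DMSO replicate 1 the log2 fold change was 1.16 ± 0.17 with an edgeR adjusted p of 7.69e-05.

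ID2 (chr2:8678845-8684461, plus strand, 3 exons) was counted rarely. It had 55, 33, 24, 34 and 29 counts in DMSO replicates 1 to 5, and 8, 0, 1, 10 and 15 counts in SFN replicates 1 to 5. The groups did not overlap, in counts or in CPM. The count of 0 in SFN replicate 2 allows up to 3 counts, or 0.259 CPM, where such limits cover counting error only. The mean fell from 2.01 ± 0.836 to 0.457 ± 0.438 CPM (SD, n = 5 each), and the log2 fold change was -2.07 ± 0.58 with an edgeR adjusted p of 0.0238. The call was lost without SFN replicate 1 (edgeR adjusted p = 0.0585) or SFN replicate 3 (edgeR adjusted p = 0.0546).

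ID1 (chr20:31605283-31606515, plus strand, 2 exons) did not pass the test. It had 43.5, 13.1, 12.6, 15.1 and 14.4 CPM in DMSO replicates 1 to 5, and 11.7, 21.8, 15.2, 10.9 and 10.2 CPM in SFN replicates 1 to 5. DMSO replicate 1 was far above every other library, and the other DMSO values lay within the SFN range. The log2 fold change was -0.50 ± 0.36 with an edgeR adjusted p of 0.371, and without DMSO replicate 1 it was 0.00 ± 0.19, with an edgeR adjusted p of 0.995.

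The 3 ID genes also differed from each other within libraries. The log2 ratio of ID1 to ID3 was -0.25, -0.99, -0.47, -0.58 and -0.80 in DMSO replicates 1 to 5 and -2.0, -1.62, -1.91, -2.21 and -1.81 in SFN replicates 1 to 5. It fell by 1.29 ± 0.16 (SE), with an adjusted p of 0.0106 by the exact permutation test over the 4 ratios. With 1 added to each count because of the 0, the log2 ratio of ID2 to ID3 lay between -4.08 and -3.43 in DMSO and between -9.60 and -4.98 in SFN, and fell by 3.37 ± 0.86, with the same adjusted p of 0.0106 in the exact permutation test. The log2 ratio of ID1 to ID2 overlapped between the groups, at 2.85 to 3.64 in DMSO and 3.18 to 7.99 in SFN. Its difference was 2.08 ± 0.91, with an adjusted p of 0.0159 in the exact permutation test, and without SFN replicate 2, which had 0 counts of ID2, the difference was 1.39. Without any 1 of the DMSO libraries this ratio no longer passed the threshold, with adjusted p-values of 0.0556 to 0.0714 in the exact permutation test.

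**Figure D2:**
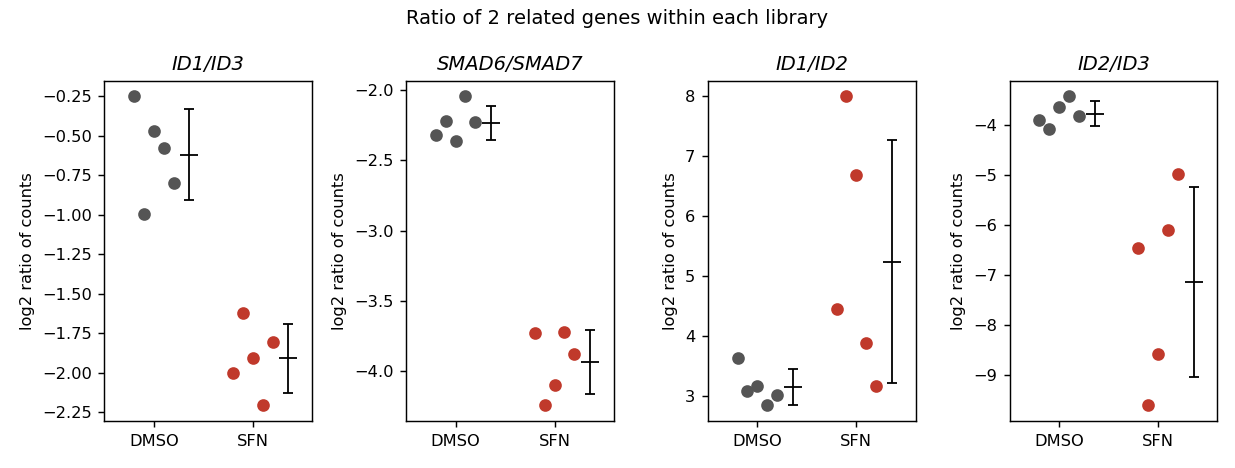
Log2 ratio of counts of 2 related genes within each library, for the 5 DMSO and 5 SFN libraries, with the mean and SD as bars. Both ratios with ID2 include 1 added count. SMAD6/SMAD7, ID1/ID3 and ID2/ID3 are lower in every SFN library than in every DMSO library, and ID1/ID2 overlaps between the groups.

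SKIL, TGFB2 and BAMBI did not pass the test with all libraries. SKIL (chr3:170357342-170396835, plus strand, 7 exons) encodes SnoN, a co-repressor of SMAD complexes. It had 46.3, 80.9, 80.8, 83.0 and 87.3 CPM in DMSO replicates 1 to 5 and 50.4, 30.1, 54.1, 58.2 and 60.7 CPM in SFN replicates 1 to 5. DMSO replicate 1 was below 4 of the 5 SFN values, and the other DMSO libraries were above all of them. The log2 fold change was -0.58 ± 0.21 with an edgeR adjusted p of 0.0691, and without DMSO replicate 1 it was -0.71 ± 0.15 with an edgeR adjusted p of 0.00199.

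TGFB2 (chr1:218345336-218444619, plus strand, 7 exons) encodes a TGF-beta ligand. It had 91.1, 180.5, 185, 186 and 195 CPM in DMSO replicates 1 to 5 and 135, 118, 152, 135 and 151 CPM in SFN replicates 1 to 5. DMSO replicate 1 was the lowest of the 10 libraries, whereas DMSO replicates 2 to 5 were above every SFN library. The log2 fold change was -0.28 ± 0.19 with an edgeR adjusted p of 0.329, and without DMSO replicate 1 it was -0.44 ± 0.09 with an edgeR adjusted p of 0.00115. BAMBI (chr10:28677510-28682932, plus strand, 3 exons) encodes a pseudoreceptor that lacks the kinase domain of a type I receptor. It had 37.7, 18.8, 20.5, 17.2 and 21.5 CPM in DMSO replicates 1 to 5 and 14.3, 19.3, 14.6, 13.8 and 10.8 CPM in SFN replicates 1 to 5, and the groups overlapped through SFN replicate 2. The log2 fold change was -0.67 ± 0.22 with an edgeR adjusted p of 0.0508, and -0.43 ± 0.14 without DMSO replicate 1, with an edgeR adjusted p of 0.023.

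**Figure D3:**
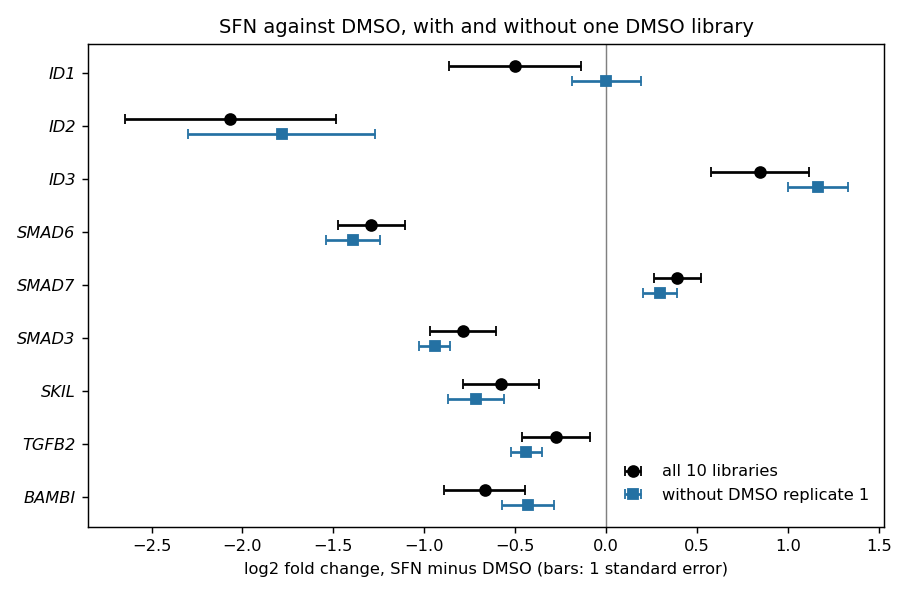
Log2 fold change of SFN against DMSO for the 9 genes, with 1 standard error as bars. Black circles use all 10 libraries and blue squares leave out DMSO replicate 1. ID1 moves from -0.50 to 0.00. ID3 moves from 0.85 to 1.16, and ID3 and the other 7 genes keep their direction.

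DMSO replicate 1 was the highest DMSO library for ID1, ID2, ID3 and BAMBI, by 0.95 to 1.66 on the log2 scale over the mean of the other 4. It was the lowest for SMAD6, SMAD7, SMAD3, SKIL and TGFB2, with log2 differences from -1.04 to -0.52. The first 4 genes have the shortest canonical transcripts of the 9, at 950 to 1691 bases, and the others have 3341 to 7155 bases. Over all genes tested with a known length, the median difference of DMSO replicate 1 from the other DMSO libraries was 0.69 for the 3739 genes under 2000 bases, -0.04 for the 4558 genes of 2000 to 4000 bases and -0.54 for the 5027 longer genes. SFN replicate 2 had the highest SFN value of ID1, ID3 and BAMBI and the lowest of the other 6. Its median difference from the other SFN libraries was 0.33 for the short genes and -0.22 for the long ones. For SFN against DMSO with all libraries, the median log2 fold change also differed by length. It was 0.06 under 2000 bases, -0.003 for 2000 to 4000 bases and -0.11 for the longer genes. The part of transcript length in the values of the 9 genes was not tested.

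**Figure D4:**
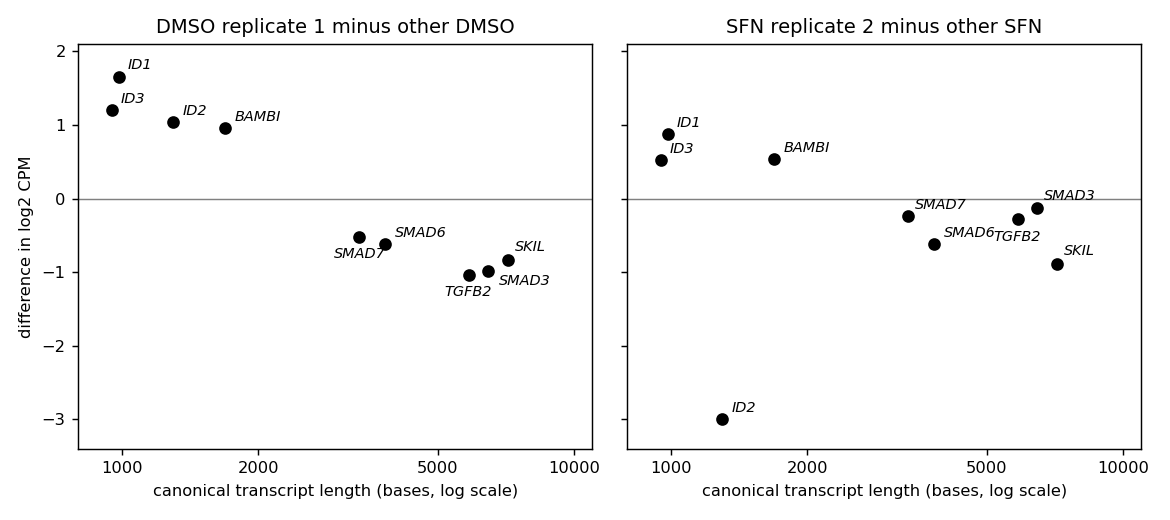
Difference in log2 CPM of DMSO replicate 1 (left) and SFN replicate 2 (right) from the mean of the other libraries of their group, for each of the 9 genes, against the length of the canonical transcript on a log axis. In DMSO replicate 1 the 4 genes with the shortest transcripts lie above 0 and the other 5 lie below it. In SFN replicate 2 ID2 lies lowest, where its count was 0.

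Other genes of the pathways were described from lists by role, which were also chosen with earlier results of these data known. Of 120 listed genes that are not among the 9, 89 were tested, and 25 passed, or 28.1% against 23.0% of all genes. Of these, 9 increased and 16 decreased, and the median log2 fold change of the 89 was -0.001, against -0.03 over all genes. All 25 calls kept their direction and side of the threshold without DMSO replicate 1, where 19 of 93 increased and 24 decreased, or 46.2% in all against 46.1% of all genes. By direction, 9.07% of all genes increased and 13.9% decreased, and 22.5% and 23.5% did so without DMSO replicate 1. The counts of each list below stand against these shares. RUNX2, ACVR2B, GATA2, SMAD1, FKBP1A and TGIF1 were named by a rule of size and level, and the others given below because few genes passed in each list, after their values were seen.

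Among 6 ligands tested, 1 increased and 3 decreased. TGFB1, the most widely expressed TGF-beta, had 84.8 ± 12.8 CPM in DMSO and 112 ± 2.82 CPM in SFN (SD, n = 5), with a log2 fold change of 0.41. The decreases were BMP2 (-1.78 on the log2 scale), GDF6, a BMP family member (-1.15), and INHBA, the subunit of activin A (-0.67). INHBA had 1307 CPM in DMSO replicate 1 and 659 to 676 CPM in the other DMSO libraries, and without that library its log2 fold change was -0.43. Of 17 extracellular regulators, 0 increased and 1 decreased, the BMP antagonist NOG (-1.79), which had 14 to 39 counts in DMSO and 1 to 9 in SFN and a log2 fold change of -1.38 without DMSO replicate 1. Without that library, 2 extracellular regulators increased and 2 decreased. Of 12 receptors, 0 increased and 2 decreased, and 5 decreased without DMSO replicate 1. The activin type II receptor ACVR2B went from 5.90 ± 2.42 to 1.5 ± 0.530 CPM, with a log2 fold change of -1.95 ± 0.38 and an edgeR adjusted p of 0.00328, and the co-receptor TGFBR3 (betaglycan) changed by -0.83 on the log2 scale.

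Of 5 other SMAD genes, 1 passed the test, SMAD1, a SMAD of the BMP branch. It rose from 9.85 ± 1.45 to 14.8 ± 0.557 CPM, with a log2 fold change of 0.59 ± 0.12 and an edgeR adjusted p of 0.0045, and the groups did not overlap. Without DMSO replicate 1, 2 of these SMAD genes increased. Of 20 co-repressors and turnover factors, 3 increased and 2 decreased, and without DMSO replicate 1 these counts were 5 and 3. The co-repressor TGIF1 rose from 18.8 ± 4.07 to 36.6 ± 3.90 CPM (log2 fold change 0.96 ± 0.16, edgeR adjusted p = 0.0012), whereas the related TGIF2 fell from 15.1 ± 3.46 to 5.62 ± 0.760 CPM (log2 fold change -1.42). FKBP1A, which encodes a protein that binds type I receptors and prevents their leaky activation, rose from 152 ± 8.5 to 232 ± 41.5 CPM (log2 fold change 0.61 ± 0.13, edgeR adjusted p = 0.0046). LEMD3, an inner nuclear membrane protein that binds receptor-activated SMADs, rose by 0.55 on the log2 scale, and CTDSP1, a phosphatase that acts on SMADs, changed by -0.72.

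Of 19 TGF-beta target genes, 3 increased and 5 decreased, and the median log2 fold change was 0.04. The number increased ranged from 0 to 6 over 19 alternative analyses, with 0 under scaling by library totals alone, with no low-count filter, with a block for replicate number and without DMSO replicate 2, DMSO replicate 4 or SFN replicate 1, 1 without DMSO replicate 5 or SFN replicate 2, 3 or 4, and 6 without DMSO replicate 1. Among the increases were TGFBI (log2 fold change 0.31) and the cell cycle inhibitor CDKN1A (0.46), which is also a target of p53. HMGA2 (-1.27), TSC22D1 (-1.19), SNAI2 (-1.15), BHLHE40 (-1.0) and LIF (-0.54) decreased. Of 7 BMP target genes other than the ID genes, 1 increased and 3 decreased, and 3 increased without DMSO replicate 1. RUNX2, the bone-forming transcription factor, fell from 20.7 ± 5.17 to 3.83 ± 0.494 CPM (log2 fold change -2.44 ± 0.21, edgeR adjusted p = 8.99e-06), and GATA2 fell from 6.57 ± 0.780 to 1.76 ± 0.375 CPM (log2 fold change -1.89 ± 0.19, edgeR adjusted p = 2.86e-05). ATOH8 changed by -1.75 on the log2 scale, and HEY1, which is also a Notch target, rose from 0.794 ± 0.341 to 2.79 ± 0.357 CPM. Of the 3 genes for E proteins, TCF3, TCF4 and TCF12, 0 passed edgeR's test, and 0 had an unadjusted p under 0.05. The call of TGFBI was lost in 13 of 19 alternative analyses, those of LIF in 9, TGFB1 in 8, CDKN1A in 6 and INHBA in 3, and that of NOG in 3 of the 18 in which it was tested.

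**Figure D5:**
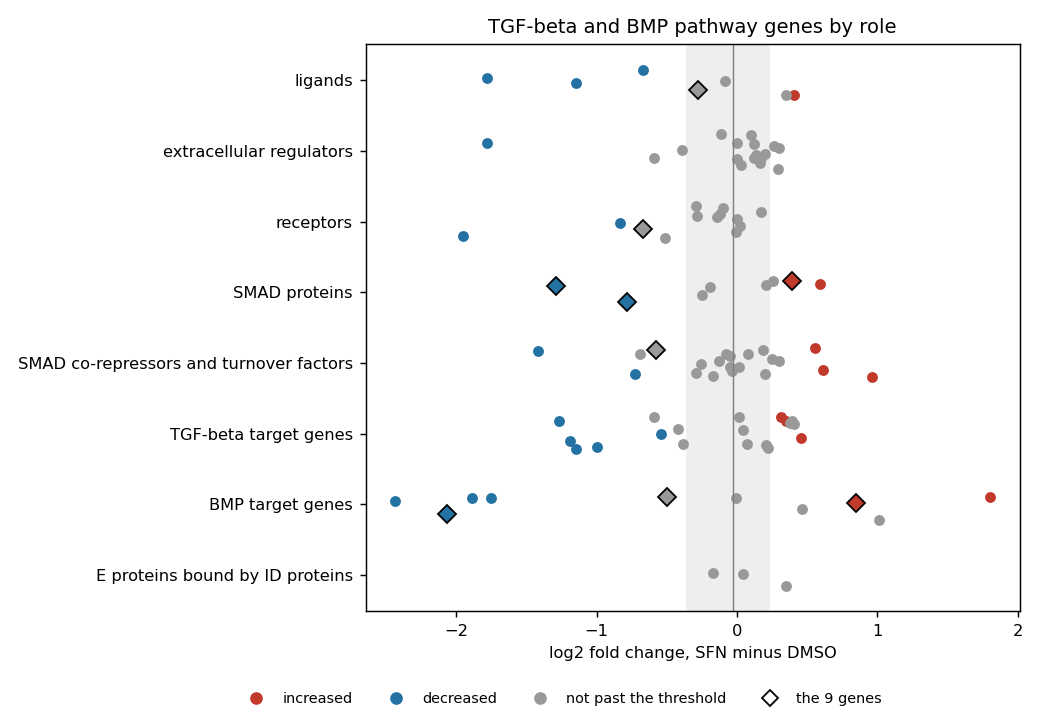
Log2 fold change of SFN against DMSO for the tested genes of each list, with the 9 genes as diamonds. Red and blue mark genes past the threshold and grey those not past it, the shaded band spans the middle 50% of all genes tested, and the vertical line is their median. BMP target genes spread from -2.44 for RUNX2 to 1.80 for HEY1.

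The genes whose log2 CPM was most like that of each changed gene over the 10 libraries were sought among 10031 genes, and the correlations are descriptions of libraries that share a treatment. SMAD6 was most like IFFO2 (Pearson r = 0.992) and TRIM35 (0.989), and SMAD3 was most like ZMIZ1 and PPRC1 (0.991 each). ID3 was most like SSR2 (0.989) and PRDX6 (0.988). SMAD7 was most like the cell cycle inhibitor CDKN1B (0.973) and the amino acid transporter SLC7A5 (0.962), and ID2 was most like RSPH3 (0.972) and ZNF92 (0.962). For SMAD6, SMAD3 and ID3 many other genes were nearly as similar as those named. RSPH3 and ZNF92 changed by -0.51 and -0.60 on the log2 scale, less than ID2 itself.

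Exons of ID2, SMAD3 and TGFB2 overlap an annotated RNA on the opposite strand. These had at most 3 counts (ID2-AS1), 4 counts (ENSG00000259347) and 6 counts (TGFB2-AS1) in any library, and whether counting used strand is not given in the sources used here. TGFB2 also overlaps TGFB2-OT1, an annotated RNA on its own strand that is not among the genes counted.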

How the data were processed

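QuantSeq libraries were made from RNA of RPE-1 cells given SFN or the vehicle. The authors deposited whole-number raw counts for each Ensembl gene and each replicate, not normalized. Their methods name the Bluebee pipeline, and the submitters' processing notes list FastQC, STAR, featureCounts and edgeR and the build GRCh38. Reads at transcript 3′ ends should in principle give levels that do not scale with transcript length. Levels were not compared between genes.

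The members and lists were chosen with earlier results of these data known. Genes were filtered with filterByExpr and libraries scaled by TMM in edgeR 4.0.16 (R 4.3.3), which gave CPM. SFN was compared with DMSO by glmQLFit and glmQLFTest with Benjamini-Hochberg adjustment over 13378 genes at 0.05, in 5 against 5 samples. Standard errors were obtained from each log2 fold change and its F statistic. Lists are described by counts and medians. Genes of the lists were named if among the 3 largest increases or decreases past the threshold with at least 5 CPM in 1 group, and similar genes are the 2 with the highest r at a mean of at least 5 CPM. Ratios were tested by exact permutation. A count of 0 for ID2 left a ratio undefined, so 1 was added to both counts in the ratios with ID2, which departs from the planned analysis. Alternatives used other scalings, DESeq2 1.42.0, limma 3.58.1 voom with quantile normalization, other filters, a 2-fold limit, a replicate block and leaving out each library. The fit without both DMSO replicate 1 and SFN replicate 2 was added after seeing the data. Scripts were tested on simulated data.

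Replicates differed by more than sampling noise, with chi-square per degree of freedom of 3.70 to 280 between pairs within a group. Pairs with DMSO replicate 1 had 262 to 280, the other DMSO pairs 3.70 to 14.3 and the SFN pairs 4.06 to 74. GENCODE 44 held 28145 of 28380 gene identifiers and gave positions and lengths. The values of 1 gene of the lists are not reported here. TGFB1 carries a clone name in the table and was matched by its Ensembl identifier. SMAD7 and SMAD3 have 3 and 5 promoter windows in RefSeq, of which the first was used.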

Additional observations from a re-analysis of the deposited data

Results flagged for a closer look

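A library that stood apart from the other 4 of its group was looked for in each of the 9 genes and the other named genes and ratios, by the gap to its nearest neighbor as a share of the whole range, which should stay under 0.71 for 5 samples. This was exceeded in 13 of 76 groups examined, where chance alone gives about 1 in 20, and the library was DMSO replicate 1 in 11 of the 13.

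Among the 9 genes, DMSO replicate 1 was far above the other DMSO libraries for ID1 (share 0.918), ID3 (0.746) and BAMBI (0.789). It was far below them for SMAD3 (0.794), SKIL (0.842) and TGFB2 (0.86). Among other genes of the pathways, it was high for INHBA (0.974) and NOG (0.811) and low for RUNX2 (0.791), ACVR2B (0.855) and TSC22D1 (0.835). SFN replicate 3 was low for GATA2 (0.764), and SFN replicate 2 was high for TGFB1 (0.764).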

How the results depend on the processing

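SMAD6 and SMAD3 kept their direction and passed the threshold in all 19 alternatives run, with log2 fold changes from -1.39 to -1.08 and from -0.94 to -0.72. ID2 lost its call in 2 of 19, ID3 in 9 and SMAD7 in 11, while SKIL gained one in 4, BAMBI in 8 and TGFB2 in 2. The log2 fold change of ID1 was reversed, to 0.001, without DMSO replicate 1, and ranged from -0.707 to 0.001 when 1 library was left out. The cause of these changes was not tested.

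Of the 9 genes, 1 increased under scaling by library size only, without a low-count filter and with the replicate block, 0 under upper-quartile scaling, and 0 above 2-fold. Leaving out 1 library gave 0 to 2 increased and 2 to 6 decreased. There were 5 decreased under upper-quartile scaling and with DESeq2, and 6 without DMSO replicate 1 and SFN replicate 2. Of the other pathway genes, 5 increased under scaling by library size only and without a low-count filter, 1 above 2-fold, 24 without DMSO replicate 1 and SFN replicate 2, and 5 to 19 when 1 library was left out. Over all genes, 393 increased and 770 decreased above 2-fold, and 3106 and 3273 without DMSO replicate 1 and SFN replicate 2. Leaving out 1 library gave 906 to 3058 increased and 1470 to 3193 decreased. Scaling by library size only moved the median log2 fold change of all genes from -0.03 to -0.11.

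The labels do not say whether the replicate numbers pair the samples, and the paper's methods mention repeated measures without defining them. Deviations of same-numbered libraries correlated at 0.036, -0.246, -0.056, 0.027 and 0.459, and only replicate 5 correlated best with its own number. Such correlations cannot show whether cultures were paired, because libraries that stood apart, such as DMSO replicate 1, also shape them. With the replicate block, 911 genes increased and 1530 decreased, against 1214 and 1862, and SMAD7 had an edgeR adjusted p of 0.0765. The ratios with the block were 2.082 for ID1/ID2, -1.291 for ID1/ID3, -3.369 for ID2/ID3 and -1.702 for SMAD6/SMAD7, each with an adjusted p of 0.0625 by an exact sign-flip test, the smallest it allows. Leaving out 1 library gave 1.39 to 2.60 for ID1/ID2. The counting error of ID2, with 0 to 15 counts in SFN, was larger than for the other 8 genes.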
